A study of Homo sapiens with 24 samples.

Results

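The genes described here are 48 genes of DNA replication and nucleotide synthesis: 10 that license origins or form the MCM2-7 ring, 6 that turn the ring into the active CMG helicase, 9 DNA polymerase and primase subunits, 9 subunits of the sliding clamp, the clamp loader and the single-strand binding protein RPA, 4 that mature Okazaki fragments, 5 that supply deoxynucleotides, and 5 E2F and replication-coupled chromatin genes. They were chosen by symbol from textbook roles, with earlier results of these data known. All 48 were found among the 26475 gene symbols of the count table, and all 48 passed the filter on low counts, which left 13900 genes for testing. RNA was sequenced from HK2, an immortalised line of human proximal tubule cells, in 6 groups of 4 libraries. Each group was 1 of 3 single-cell clones, named WT8, MUT10 and MUT35, either kept with doxycycline (dox on) or after dox withdrawal (dox off). All 3 clones derive from CRISPR-Cas9 treatment with a VHL guide and carry a VHL transgene that dox switches on, so withdrawal removes transgenic VHL in all of them. WT8 is taken to keep its endogenous VHL and MUT10 and MUT35 to have lost it, as the study mainly describes it, although 1 sentence of its methods counts WT8 among the mutated derivatives and the series description sets WT8 without dox beside the knockouts. Each genotype rests on 1 or 2 clones, and the labels do not say whether the 4 replicates of a group came from separate cultures, so the p-values measure only the spread between these libraries.

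DNA replication starts where the origin recognition complex, CDC6 and CDT1 load the MCM2-7 ring onto DNA. MCM10, CDC45 and the GINS complex then convert the ring into the moving CMG helicase, polymerase alpha with primase lays primers, and polymerases epsilon and delta extend the leading and lagging strands on the PCNA clamp. Ribonucleotide reductase, thymidylate synthase and thymidine kinase supply the deoxynucleotides. Many of these genes are transcribed in a burst before S phase under the E2F factors, so their RNA level in a culture follows how many of its cells are in or near S phase as well as the RNA per cell, and bulk libraries cannot tell the former from the latter. VHL, the substrate receptor of an E3 ubiquitin ligase, keeps the hypoxia-inducible factors low.

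Library totals ranged from 5206663 to 18196003 counts. VHL read 192 to 400 CPM (counts scaled by library size, with TMM factors) in the 12 dox on libraries and 17.8 to 34.1 CPM in the 12 dox off libraries, in WT8 as in the mutant clones. The renal gene PAX8 was expressed in every library, at 174 to 566 CPM, while PAX2 did not exceed 1.29 CPM. Of 7 markers of the differentiated proximal tubule, LRP2, AQP1, SLC34A1, ANPEP, CUBN and SLC5A2 did not exceed 1.74 CPM and the enzyme GGT1 had 17.8 to 71.8 CPM. The labels give lung as the tissue, yet of 7 lung markers SFTPC and SFTPA1 were at 0 in all 24 libraries, NKX2-1, SFTPA2 and SCGB1A1 did not exceed 0.284 CPM, and SFTPB and NAPSA did not exceed 2.56 CPM. Of 6 fibroblast and leukocyte markers, LUM and CD68 had 20.1 to 110 and 115 to 533 CPM, DCN had 0 to 2.92 CPM and was called higher after withdrawal in the mutant clones (edgeR adjusted p = 7.73e-09, from counts near 0), and PDGFRA, PTPRC and CD3E did not exceed 0.357 CPM. Their part in the results was not tested. The libraries also differed by dox state in a way that bears on every withdrawal result. The slope of log2 CPM on the GC content of the transcript, relative to the mean library, was between -0.346 and -0.027 per 10 points of GC in the dox on libraries and between -0.011 and 0.399 in the dox off libraries, in every clone. MUT10 dox on replicate 2 and MUT10 dox off replicate 4 had the slopes nearest 0 of their states. No label names a batch, so dox state and any difference in library preparation cannot be told apart, and the values with each library's GC trend removed are given beside the results it touches.

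After dox withdrawal, more of the replication genes fell than rose in the mutant clones. Averaged over MUT10 and MUT35, 31 of the 48 fell and 13 rose (edgeR quasi-likelihood test, adjusted p under 0.05), beside 35.5% of all tested genes that fell and 38.1% that rose. Their median log2 fold change was -0.338, against 0.028 over all genes tested. MUT10 alone had 30 falls and 10 rises, where 32.3% of all genes fell and 33.8% rose, and MUT35 alone had 30 falls and 8 rises, where 31.3% fell and 32% rose. In WT8 the same withdrawal gave 20 falls and 13 rises among the 48, with a median of -0.038, beside 29.8% falls and 29.5% rises among all genes. The libraries of the 2 states did not overlap, with dox off below dox on, for 28 members in MUT10, 28 in MUT35 and 20 in WT8, where 24.7%, 29.7% and 28% of all genes did so. Dox off lay wholly above dox on for 2 members in MUT10, 8 in MUT35 and 13 in WT8, against 25.1%, 29.5% and 27.6% of all genes. With 4 libraries against 4, complete separation corresponds to an exact 2-sided permutation p of 0.0286, the smallest that the design allows.

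**Figure D1:**
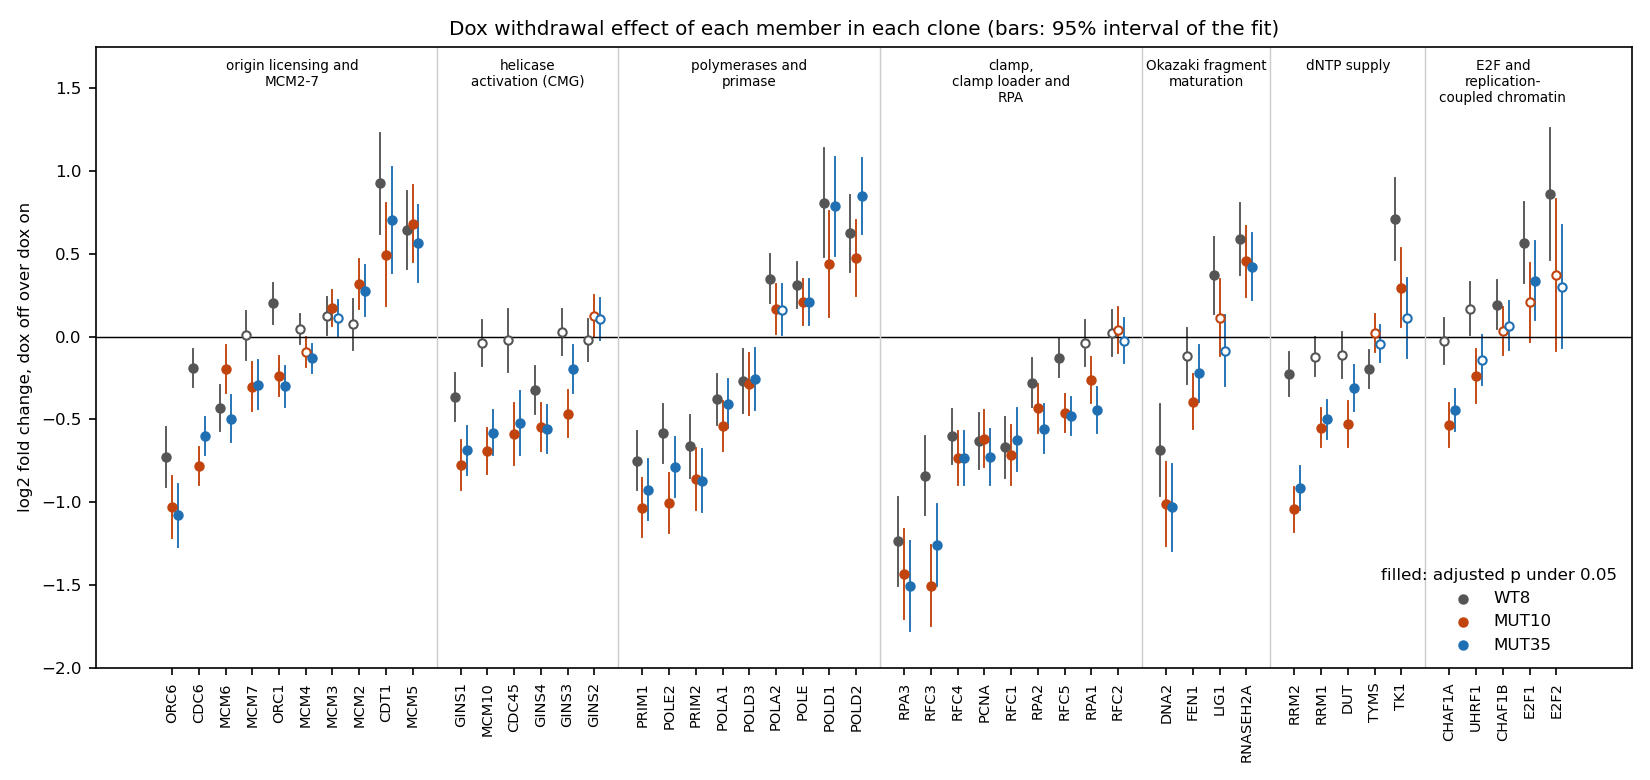
Log2 fold change of dox off over dox on for each of the 48 genes (vertical axis, log2) in WT8, MUT10 and MUT35, ordered within roles, with the 95% interval of the fit and filled points where the adjusted p was under 0.05. The clamp, clamp loader and RPA genes lie at or below 0 apart from RFC2, and RRM2, MCM10, CDC45 and CHAF1A lie lower in both mutant clones than in WT8.

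Direction followed base composition among the 48 genes, as it did among all genes. Of the 20 with a transcript GC content of at least 50%, 12 rose and 6 fell in the mutant clones, and of the 28 below 50%, 1 rose and 25 fell. Among all genes of at least 50% GC, 65.2% rose and 10% fell in the mutant clones, and among all genes below 50%, 17.2% rose and 56.2% fell. WT8 showed the same division, with 12 rises and 0 falls among the 20 GC-rich genes (8 passed in neither direction) and 1 rise and 20 falls among the 28 others, where the shares of all genes were 57.9% and 4.16% in the GC-rich class and 8.1% and 50.6% in the other. Across the 48 genes, the withdrawal effect had a Spearman correlation with GC content of 0.834 in the mutant clones and 0.872 in WT8, as a description over genes that share their libraries. Over 13467 genes with a known GC content, the correlations were 0.635 and 0.745. With each library's GC trend removed, 3 of the 48 rose and 37 fell in the mutant clones, beside 32.8% and 34.1% of all genes. In WT8, 8 rose and 18 fell, beside 20.7% and 19.3%. The falls of the mutant clones were thus no fewer with the trend removed, while most of the rises were no longer rises. Of the 13 genes that rose, only MCM5, GINS2 and POLD2 were called higher with the trend removed.

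The difference between the mutant clones and WT8 in their response to withdrawal did not follow GC content, with a Spearman correlation of 0.098 over the 48 genes. This interaction subtracts the response of WT8, which also lost transgenic VHL. It passed the threshold for 20 of the 48 genes: 19 responded more negatively in the mutant clones than in WT8, beside 11.4% of all genes, and 1 (TYMS) more positively, beside 12.1%. The median difference was -0.232 on the log2 scale, against 0.007 over all genes. With the GC trend removed, 28 were lower and 2 higher, beside 18.8% and 15% of all genes. Leaving out MUT10 dox on replicate 2 and MUT10 dox off replicate 4 gave 26 lower and 2 higher, beside 2325 and 1842 of 13986 genes. The differences beyond 0.5 were those of RRM2, MCM10, RFC3, CDC45, TK1 and CDC6, and each of these 6 stayed past the threshold when any 1 of the 24 libraries was left out. TYMS passed in only 6 of the 24 such fits.

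Among the 10 genes of origin licensing and the MCM2-7 ring, 6 fell and 4 rose in the mutant clones, beside 35.5% and 38.1% of all genes. The falls were those of ORC6 (a subunit of the origin recognition complex), CDC6 (an ATPase that recruits the ring), MCM6, MCM7, ORC1 and MCM4, and the rises those of MCM5, CDT1 (the partner of CDC6 in loading), MCM2 and MCM3. The ring is built from equal numbers of MCM2 to MCM7, yet the RNAs of its subunits moved from -0.35 (MCM6) to 0.62 (MCM5) on the log2 scale. With the GC trend removed this range was -0.66 (MCM7) to 0.23 (MCM5), and MCM2 turned from 0.30 to -0.14, past the threshold on both sides. ORC6 read 64.3, 53.7, 58.1 and 56.5 CPM with dox and 35.5, 32.7, 34.6 and 37.0 CPM after withdrawal in WT8. In MUT10 it read 44.7, 41.4, 44.2 and 52.7 CPM with dox and 21.6, 20.3, 21.2 and 26.7 CPM after withdrawal. In MUT35 it read 48.5, 38.6, 43.8 and 41.6 CPM with dox and 20.6, 18.4, 20.9 and 21.3 CPM after withdrawal. Dox on and dox off libraries were fully apart in all 3 clones, with the lowest levels in the dox off mutant libraries. The log2 fold change of ORC6 was -1.06 ± 0.065 (log2, SE, adjusted p = 2.09e-13) in the mutant clones and -0.73 ± 0.087 (log2, SE, adjusted p = 4.95e-07) in WT8, and the difference was -0.33 ± 0.11 (log2, SE, adjusted p = 0.0298).

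CDC6 was higher in the mutant clones than in WT8 with dox, and the difference did not pass after withdrawal. It stood at 90.9, 84.2, 91.2 and 90.3 CPM with dox and 78.0, 73.3, 82.6 and 78.3 CPM after withdrawal in WT8. MUT10 had 136, 128, 136 and 141 CPM with dox and 74.1, 81.3, 73.0 and 85.8 CPM after withdrawal, and MUT35 had 108, 101, 107 and 109 CPM with dox and 68.5, 72.7, 69.9 and 68.7 CPM after withdrawal. Both mutant clones started above WT8 with dox, by 0.43 ± 0.049 (log2, SE, adjusted p = 7.83e-08), and after withdrawal the difference was -0.075 (adjusted p = 0.191), and the withdrawal effect was -0.69 in the mutant clones and -0.19 in WT8, a difference of -0.50 ± 0.069 (log2, SE, adjusted p = 3.65e-06). MCM5 showed the opposite picture. Its libraries read 35.9, 52.1, 46.0 and 49.4 CPM with dox and 75.2, 67.6, 70.9 and 75.7 CPM after withdrawal in WT8, 40.4, 59.9, 52.1 and 43.1 CPM with dox and 82.6, 76.7, 91.4 and 64.1 CPM after withdrawal in MUT10 and 45.5, 43.6, 40.1 and 43.6 CPM with dox and 59.3, 65.2, 58.6 and 72.1 CPM after withdrawal in MUT35. Every dox off library was above every dox on library of its clone. MCM5 rose by 0.62 ± 0.08 (log2, SE, adjusted p = 1.3e-07) in the mutant clones and by 0.65 ± 0.12 (log2, SE, adjusted p = 4.14e-05) in WT8, and the interval of the difference was -0.31 to 0.27. With the GC trend removed the rise was 0.23 and 0.28, past the threshold in both. CDT1 rose by 0.60 in the mutant clones and 0.93 in WT8. With the trend removed its values were -0.089 (not called) and 0.27 (called), at a transcript GC content of 64.3%. ORC1, the ATPase subunit of the origin recognition complex, fell by 0.27 in the mutant clones and rose by 0.20 in WT8, a difference of -0.47 ± 0.073 (log2, SE, adjusted p = 2.32e-05). MCM7 and MCM4 also responded more negatively in the mutant clones, by -0.30 and -0.16, while the differences of MCM2, MCM3 and MCM6 did not pass (0.035 to 0.41, -0.12 to 0.15 and -0.089 to 0.26, 95% intervals).

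The genes that activate the helicase fell in the mutant clones more uniformly: MCM10, CDC45, GINS1, GINS3 and GINS4 fell and GINS2 rose. In WT8 only GINS1 and GINS4 fell. MCM10, which binds the ring and helps to start unwinding, read 46.1, 44.5, 44 and 46.3 CPM with dox and 44.7, 45.8, 42.3 and 43.6 CPM after withdrawal in WT8. The MUT10 libraries had 55.9, 49.3, 47.9 and 56.5 CPM with dox and 28.6, 32.7, 35.2 and 33.3 CPM after withdrawal. The MUT35 libraries had 48.8, 47.8, 52.7 and 50.8 CPM with dox and 34.0, 31.8, 32.9 and 34.9 CPM after withdrawal. The WT8 states overlapped, and the states of each mutant clone were fully apart. MCM10 fell by 0.64 ± 0.047 (log2, SE, adjusted p = 6.96e-12) in the mutant clones, with -0.038 (adjusted p = 0.647) in WT8 and a difference of -0.60 ± 0.082 (log2, SE, adjusted p = 3.34e-06).

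CDC45, the helicase cofactor that gives CMG its first letter, was a low-level gene with the same pattern. In WT8 it had 14, 19.0, 17.8 and 15.5 CPM with dox and 15.6, 16.6, 17.2 and 16.4 CPM after withdrawal. In MUT10 it had 20.8, 22.4, 21.1 and 18.8 CPM with dox and 14.6, 13.7, 14.8 and 12.3 CPM after withdrawal. In MUT35 it had 17.8, 16.6, 16.5 and 19.5 CPM with dox and 11.8, 11.3, 12.4 and 13.3 CPM after withdrawal. No dox off library of a mutant clone reached any dox on library of that clone, and the WT8 states overlapped. The log2 fold change in the mutant clones was -0.56 ± 0.065 (log2, SE, adjusted p = 2.91e-08), the WT8 value -0.023 (adjusted p = 0.853) and the difference -0.53 ± 0.11 (log2, SE, adjusted p = 0.000918). GINS1 read 71.3, 76.7, 76.9 and 79.9 CPM with dox and 59.0, 59.5, 60.2 and 58.4 CPM after withdrawal in WT8. It read 60.1, 55.4, 54.7 and 65.3 CPM with dox and 32.1, 38.3, 30.5 and 36.2 CPM after withdrawal in MUT10. In MUT35 the values were 71.7, 62.6, 68.7 and 68.2 CPM with dox and 42.2, 38.8, 45.7 and 41.4 CPM after withdrawal. This GINS subunit separated by dox state in each clone and had the largest fall of the group in the mutant clones, -0.73 on the log2 scale (-0.46 with the GC trend removed) against -0.37 in WT8 (difference -0.37 ± 0.086 (log2, SE, adjusted p = 0.00255)). GINS2 read 130.1, 125, 128 and 127 CPM with dox and 136, 115, 132 and 119 CPM after withdrawal in WT8. It read 106, 112, 106 and 102 CPM with dox and 106, 114, 119 and 126 CPM after withdrawal in MUT10. Its values in MUT35 were 95.5, 97.0, 102 and 97.0 CPM with dox and 95.7, 112, 109 and 105 CPM after withdrawal. The states of GINS2 overlapped in all 3 clones, and its rise of 0.12 in the mutant clones (adjusted p = 0.0191) was the smallest among the genes that rose and was not called with library size alone, with no filter or without the pair of MUT10 libraries. The 4 GINS proteins form 1 complex. The withdrawal responses of their RNAs differed between the mutant clones and WT8 by -0.37 (GINS1), 0.14 (GINS2), -0.36 (GINS3) and -0.23 (GINS4), of which GINS1 and GINS3 passed the threshold. With the GC trend removed, 5 of the 6 genes of helicase activation were lower in the interaction, beside 18.8% of all genes.

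**Figure D2:**
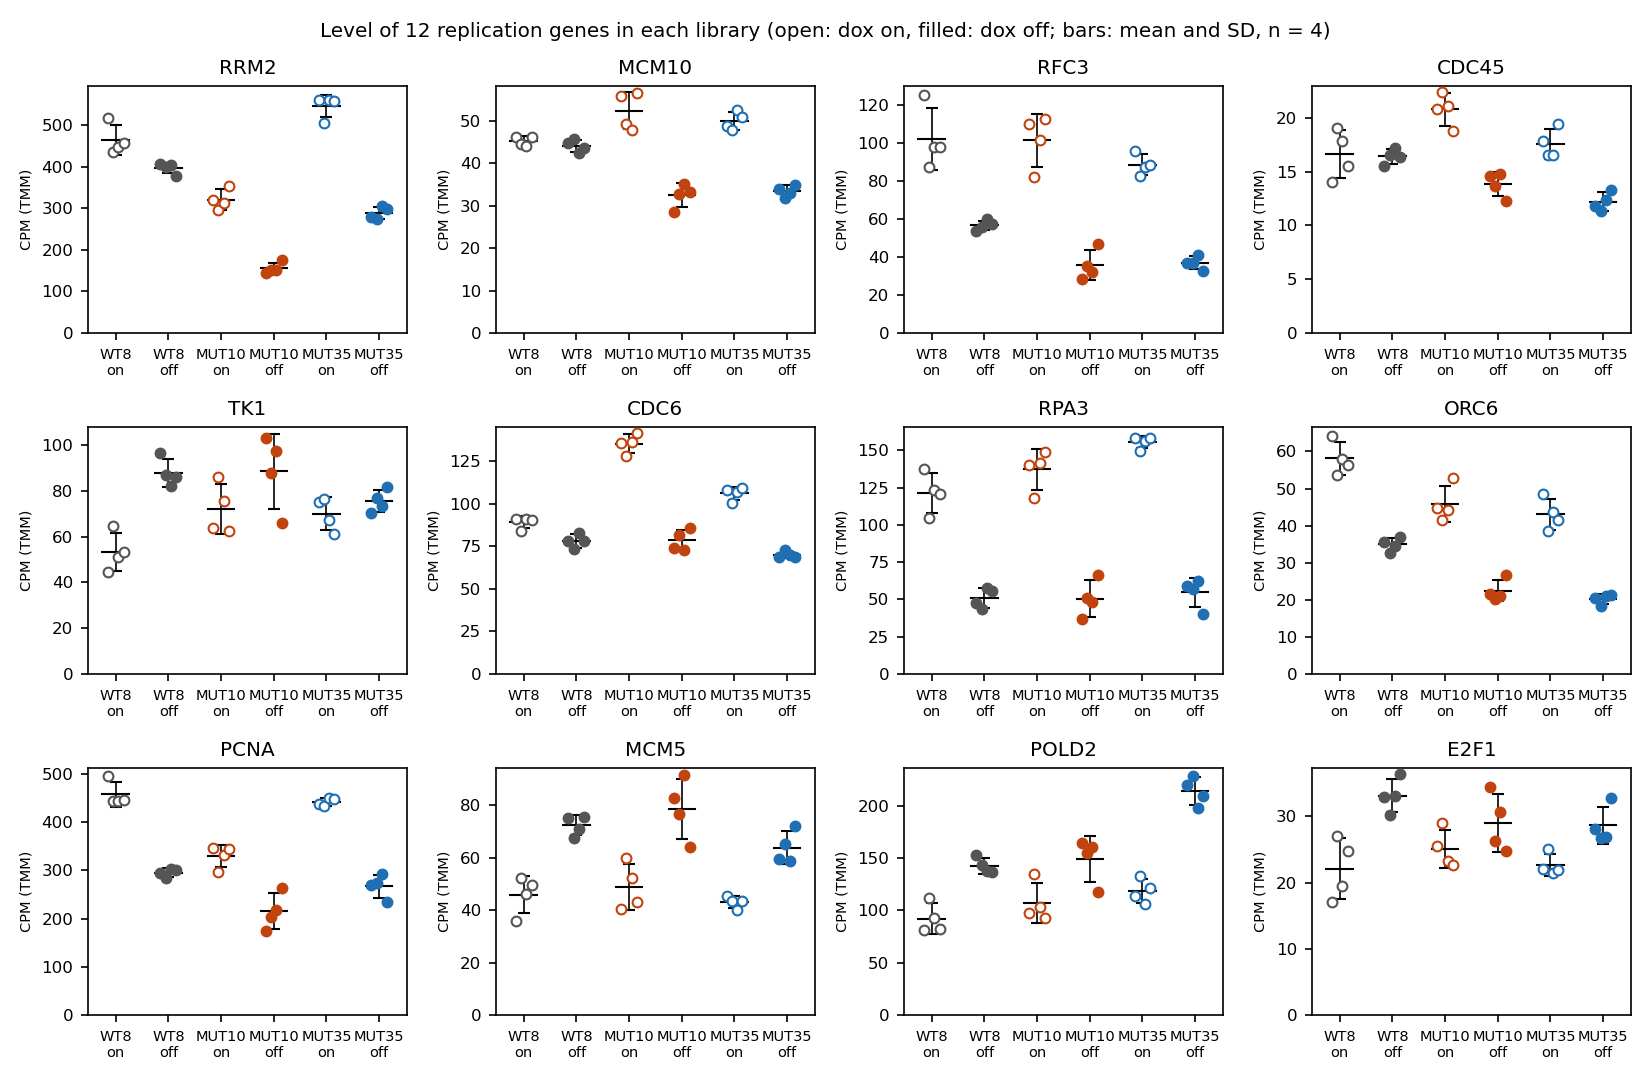
Level of 12 of the 48 genes in each of the 24 libraries (vertical axes, CPM on TMM-scaled library sizes, from 0), open points with dox and filled points after withdrawal, with the mean and SD of 4 libraries. RRM2, MCM10, CDC45 and CDC6 fall further in MUT10 and MUT35 than in WT8, while PCNA falls and MCM5 rises in all 3 clones.

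Of the polymerase and primase genes, PRIM1, POLE2, PRIM2, POLA1 and POLD3 fell and POLD2, POLD1, POLE and POLA2 rose in the mutant clones, and all 9 went the same way, past the threshold, in WT8. The catalytic subunits of the replicative polymerases delta and epsilon (POLD1 and POLE) were thus among the rises, and both primase subunits among the falls. The 5 genes that fell have transcripts of 39.6% to 42.9% GC and the 4 that rose of 53.7% to 64.8%. With the GC trend removed, POLD2 still rose (0.14) in the mutant clones, POLE (-0.19) and POLA2 (-0.091) were called lower, and POLD1 (-0.093) and POLD3 (-0.033) were not called. In WT8, 2 of the 9 were called lower and 0 higher with the trend removed, beside 19.3% and 20.7% of all genes. The other 7 were not called there. PRIM1 (25.44% of its canonical transcript), POLA2 (55.81%) and POLD1 (12.4%) share bases with another annotated gene on the same strand. The other genes of these overlaps have no row in the count table. PRIM1 also shares 3.44% with NACA, which has a row. How the shared reads were counted was not tested. PRIM1, the subunit that makes the RNA primer, read 84.0, 74.4, 69.6 and 74.0 CPM with dox and 47.1, 41.5, 45.8 and 44.4 CPM after withdrawal in WT8. MUT10 had 90.5, 74.8, 84.4 and 91.5 CPM with dox and 35.9, 39.8, 42.9 and 48.1 CPM after withdrawal. MUT35 had 59.7, 68.1, 65.1 and 56.8 CPM with dox and 35.6, 29.7, 35.9 and 30.3 CPM after withdrawal. The states were apart in each clone, and the log2 fold change of PRIM1 was -0.98 ± 0.063 (log2, SE, adjusted p = 4.78e-13) in the mutant clones and -0.75 ± 0.088 (log2, SE, adjusted p = 4.13e-07) in WT8. PRIM1 had -0.60 and POLE2 -0.52 in the mutant clones with the GC trend removed, and -0.375 and -0.328 with GC and length trends removed. POLD2, an accessory subunit of polymerase delta with the largest rise of the 48, had 81.2, 112, 93.1 and 82.4 CPM with dox and 153, 143, 137 and 137 CPM after withdrawal in WT8. In MUT10 its values were 97.1, 135, 103 and 92.8 CPM with dox and 164, 155, 160.3 and 117 CPM after withdrawal. In MUT35 its values were 114, 133, 106 and 121 CPM with dox and 219.7, 229, 197 and 209 CPM after withdrawal. The MUT10 states overlapped through the same pair of libraries whose GC slopes lay nearest 0. POLD2 rose by 0.66 ± 0.079 (log2, SE, adjusted p = 3.28e-08) in the mutant clones and by 0.62 in WT8. In the counts as deposited, only POLE2, the second subunit of polymerase epsilon, differed between mutant clones and WT8 in its response, by -0.31 ± 0.11 (log2, SE, adjusted p = 0.0349). The 95% intervals for POLD1, POLD2 and POLD3 were -0.60 to 0.20, -0.24 to 0.32 and -0.24 to 0.23. With the GC trend removed, 4 of the 9 responded more negatively in the mutant clones, beside 18.8% of all genes.

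No gene of the clamp, the clamp loader or RPA rose. In the mutant clones 8 of the 9 fell, all but RFC2, and in WT8 7 fell, all but RFC2 and RPA1. Of all genes, 35.5% fell in the mutant clones and 29.8% in WT8. Among all genes below 50% GC, where every gene of this role but RFC2 lies, 56.2% and 50.6% fell. With the GC trend removed, 9 fell in the mutant clones and 7 in WT8, beside 34.1% and 19.3% of all genes. RPA3, the smallest subunit of the single-strand binding protein, had the largest fall of the 48. In WT8 it read 138, 104, 123 and 121 CPM with dox and 47.7, 43.5, 57.6 and 55.8 CPM after withdrawal. In MUT10 it read 140.2, 118, 142 and 149 CPM with dox and 36.7, 51.0, 48.6 and 66.2 CPM after withdrawal. In MUT35 it read 158, 149.9, 156 and 158 CPM with dox and 58.9, 56.8, 62.5 and 40.5 CPM after withdrawal. The dox off ranges of the 3 clones overlapped and lay below every dox on library. The log2 fold change of RPA3 was -1.47 ± 0.093 (log2, SE, adjusted p = 3.22e-13) in the mutant clones and -1.24 ± 0.13 (log2, SE, adjusted p = 1.67e-07) in WT8, and -1.38 and -1.12 with the GC trend removed. The other RPA subunits had smaller falls, -0.50 for RPA2 and -0.35 for RPA1 in the mutant clones, and RPA1 was already higher in the mutant clones with dox, by 0.75 ± 0.06 (log2, SE, adjusted p = 1.15e-10).

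PCNA, the sliding clamp and a common marker of proliferating cells, was the most highly expressed of the 48 genes per length of transcript, at 359 CPM per kb in WT8 with dox. Its levels were 496, 444, 444 and 447 CPM with dox and 294, 284, 304 and 299.8 CPM after withdrawal in WT8. They were 346, 297, 331 and 345 CPM with dox and 175, 204, 217 and 264 CPM after withdrawal in MUT10 and 438, 433, 449 and 448 CPM with dox and 269.6, 273, 291 and 233 CPM after withdrawal in MUT35. Each clone's states were apart. The log2 fold change of PCNA was -0.67 ± 0.059 (log2, SE, adjusted p = 1.38e-10) in the mutant clones and -0.63 ± 0.083 (log2, SE, adjusted p = 1.29e-06) in WT8, and the interval of the difference was -0.25 to 0.17. The mutant value of PCNA was -0.48 with the GC trend removed and -0.26 with GC and length trends removed, called lower in both. RFC3, a clamp loader subunit, read 125, 87.8, 98.1 and 97.9 CPM with dox and 53.7, 56.0, 59.9 and 57.2 CPM after withdrawal in WT8. In MUT10 it had 110.2, 82.1, 102 and 113 CPM with dox and 28.7, 35.2, 32.2 and 46.8 CPM after withdrawal. In MUT35 it had 95.9, 82.6, 87.6 and 88.6 CPM with dox and 37.2, 37.1, 41.0 and 32.7 CPM after withdrawal. All dox off libraries were below all dox on libraries, and the mutant dox off values were the lowest of all. The log2 fold change of RFC3 was -1.38 ± 0.085 (log2, SE, adjusted p = 1.82e-13) in the mutant clones and -0.84 ± 0.12 (log2, SE, adjusted p = 2.19e-06) in WT8, a difference of -0.54 ± 0.14 (log2, SE, adjusted p = 0.00643). At 38.0%, its transcript had the second lowest GC content of the 48, and once the trend was removed its fold changes were -0.92 and -0.35 and the difference -0.58. RFC5 and RPA1 also fell more in the mutant clones, by differences of -0.34 and -0.31, while RFC1 and RFC4 fell in both, with log2 fold changes of -0.67 and -0.73 in the mutant clones and -0.67 and -0.60 in WT8. RFC1 had -0.39 in the mutant clones with the GC trend removed. For RFC2 the mutant value was 0.0074 and the WT8 value 0.021.

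In the counts as deposited, the genes of Okazaki fragment maturation gave no difference between mutant clones and WT8 that passed the threshold. With the GC trend removed, 2 of the 4 (DNA2 and LIG1) were lower in the interaction, beside 18.8% of all genes. DNA2, a nuclease and helicase for long flaps, and FEN1, the flap endonuclease, fell in the mutant clones, RNASEH2A, the catalytic subunit of RNase H2, rose, and LIG1, the ligase that seals nicks, did not pass. DNA2 read 21.1, 20.3, 20.1 and 22.3 CPM with dox and 10.6, 14.1, 12.7 and 14.7 CPM after withdrawal in WT8. In MUT10 the values were 37.8, 32.3, 36.4 and 43.4 CPM with dox and 16, 17.9, 14.8 and 25.3 CPM after withdrawal. In MUT35 they were 37.0, 31.7, 36.1 and 30.0 CPM with dox and 16, 15.0, 16.5 and 18.1 CPM after withdrawal. Mutant libraries with dox were all above WT8 libraries with dox, by 0.76 ± 0.11 (log2, SE, adjusted p = 3.43e-06), and each clone fell on withdrawal, with log2 fold changes of -1.02 ± 0.088 (log2, SE, adjusted p = 1.16e-10) in the mutant clones and -0.69 in WT8. The mutant value of DNA2 was -0.55 with the GC trend removed. RNASEH2A had 31.7, 43.1, 42.7 and 33.2 CPM with dox and 61.0, 57.2, 56.4 and 53.2 CPM after withdrawal in WT8. Its MUT10 levels were 30.2, 46.7, 36.8 and 34.2 CPM with dox and 55.5, 50.5, 53.1 and 44.3 CPM after withdrawal. Its MUT35 levels were 64.6, 64.3, 61.5 and 61.0 CPM with dox and 85.0, 80.0, 80.5 and 91.6 CPM after withdrawal. It rose by 0.44 ± 0.072 (log2, SE, adjusted p = 5.44e-06) in the mutant clones and by 0.59 in WT8, but with the GC trend removed the mutant value was -0.0026 and not called. Nearly its whole canonical transcript (94.07%) overlaps THSD8 on the same strand, a gene with no row in the count table. FEN1 fell by 0.31 in the mutant clones and had -0.12 (adjusted p = 0.232) in WT8, and LIG1 had 0.015 in the mutant clones and rose by 0.37 in WT8. With the GC trend removed LIG1 had -0.53 in the mutant clones and was called lower.

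Deoxynucleotide supply was the only role in which every gene passed the threshold of the interaction. Of its 5 genes, 4 responded more negatively in the mutant clones than in WT8, beside 11.4% of all genes. The other gene, TYMS, responded more positively, beside 12.1%, a call lost in most fits that left out 1 library. RRM2, the small subunit of ribonucleotide reductase and the limiting one in S phase, had the largest difference of the 48. In WT8 it read 517, 436, 448 and 456 CPM with dox and 406, 399, 405 and 378 CPM after withdrawal. In MUT10 it read 321, 296, 312 and 354 CPM with dox and 144, 152, 151 and 176 CPM after withdrawal. In MUT35 it read 560.4, 506, 559.9 and 558 CPM with dox and 279, 274, 306 and 298 CPM after withdrawal. The WT8 states were apart by a small step, and the dox off level was a fraction 0.485 of the dox on level in MUT10 and 0.53 in MUT35. The log2 fold change of RRM2 was -0.98 ± 0.046 (log2, SE, adjusted p = 1.08e-15) in the mutant clones and -0.22 ± 0.065 (log2, SE, adjusted p = 0.00442) in WT8, a difference of -0.76 ± 0.079 (log2, SE, adjusted p = 4.96e-08). With the GC trend removed WT8 had 0.079, not called, and the difference was -0.79. RRM1, the large catalytic subunit, followed with -0.53 ± 0.041 (log2, SE, adjusted p = 1.59e-11) in the mutant clones, -0.12 (adjusted p = 0.0677) in WT8 and a difference of -0.40 ± 0.07 (log2, SE, adjusted p = 0.000103). Removing the GC trend left RRM1 at -0.29 in the mutant clones. DUT, which removes dUTP, differed by -0.31 ± 0.083 (log2, SE, adjusted p = 0.00695). Pseudogenes are annotated for DUT (8), RRM2 (3), PCNA (3) and RPA2 (3). Of these, only 1 of PCNA has a row in the count table. How reads shared with them were counted was not tested.

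TK1, the thymidine salvage kinase of S phase, rose more in WT8 than in the mutant clones. WT8 had 44.6, 64.5, 50.9 and 53.1 CPM with dox and 96.4, 86.9, 82.2 and 86.0 CPM after withdrawal. MUT10 had 64.0, 86.0, 75.5 and 62.7 CPM with dox and 103, 87.6, 97.3 and 66.1 CPM after withdrawal. MUT35 had 75.2, 76.5, 67.3 and 61.3 CPM with dox and 70.4, 76.8, 73.5 and 81.6 CPM after withdrawal. The WT8 states were apart and the mutant states overlapped. TK1 rose by 0.71 ± 0.12 (log2, SE, adjusted p = 2.34e-05) in WT8 and by 0.20 ± 0.083 (log2, SE, adjusted p = 0.0307) in the mutant clones, a difference of -0.51 ± 0.15 (log2, SE, adjusted p = 0.0118). At 60.3% GC it is one of the GC-rich members, and with the trend removed it rose by 0.18 in WT8 and fell by 0.36 in the mutant clones, a difference of -0.54. The rise of TK1 in the mutant clones was also not called with library size alone or no filter. TYMS, which makes thymidylate, was the exception in the other direction: it fell by 0.20 ± 0.056 (log2, SE, adjusted p = 0.00376) in WT8, had -0.01 (adjusted p = 0.825) in the mutant clones and differed by 0.19 ± 0.068 (log2, SE, adjusted p = 0.0466). ENOSF1 lies opposite to it over 59.95% of its canonical transcript, and whether strand was used in counting is not given in the sources used here.

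Among the E2F and chromatin genes, the activators E2F1 and E2F2 rose in WT8 and in the mean of the mutant clones, where the chromatin genes UHRF1 and CHAF1A fell and CHAF1B did not pass. E2F1 read 17.1, 27.0, 19.5 and 24.8 CPM with dox and 32.9, 30.3, 33 and 36.3 CPM after withdrawal in WT8. In MUT10 it read 25.5, 29.0, 23.2 and 22.7 CPM with dox and 34.4, 26.3, 30.6 and 24.7 CPM after withdrawal. In MUT35 it read 22, 25.0, 21.4 and 22 CPM with dox and 28.1, 26.8, 26.9 and 32.8 CPM after withdrawal. The states were apart in WT8 and MUT35 and overlapped in MUT10. E2F1 rose by 0.27 ± 0.082 (log2, SE, adjusted p = 0.00458) in the mutant clones and by 0.57 ± 0.12 (log2, SE, adjusted p = 0.000238) in WT8, but with the GC trend removed it was called lower in the mutant clones (-0.33) and had -0.004, not called, in WT8, at a GC content of 61.6%. E2F2 was the lowest of the 48 per length of transcript. It had 2.66, 3.11, 2.87 and 2.41 CPM with dox and 6.22, 4.57, 4.92 and 4.37 CPM after withdrawal in WT8. It had 1.20, 2.57, 1.94 and 1.49 CPM with dox and 2.58, 1.98, 2.94 and 2.03 CPM after withdrawal in MUT10 and 4.42, 3.71, 3.78 and 3.04 CPM with dox and 4.20, 3.70, 5.09 and 5.27 CPM after withdrawal in MUT35. Its rise in the mutant clones, 0.34 ± 0.14 (log2, SE, adjusted p = 0.0373), did not separate the libraries of either mutant clone and was called in 5 of 13 alternatives. CHAF1A, the large subunit of the histone chaperone CAF-1, read 21.2, 19.9, 21.2 and 20.8 CPM with dox and 22, 21.0, 19.9 and 18.9 CPM after withdrawal in WT8. It read 25.9, 26.3, 26.6 and 26.6 CPM with dox and 17.9, 17.8, 17.6 and 19.4 CPM after withdrawal in MUT10. In MUT35 its levels were 35, 34.7, 36.7 and 36.1 CPM with dox and 28.5, 25.6, 24.6 and 25.9 CPM after withdrawal. Mutant libraries with dox were above WT8 with dox, by 0.56 ± 0.058 (log2, SE, adjusted p = 1.01e-08), and after withdrawal the difference was 0.10 (adjusted p = 0.138). CHAF1A fell by 0.49 ± 0.045 (log2, SE, adjusted p = 3.02e-10) in the mutant clones, had -0.026 (adjusted p = 0.763) in WT8 and differed in its response by -0.46 ± 0.08 (log2, SE, adjusted p = 8.89e-05). CHAF1A had -0.94 in the mutant clones with the GC trend removed. UHRF1, which links replication to DNA methylation, also differed, by -0.36, and CHAF1B, the partner of CHAF1A, did not pass, with a 95% interval of -0.32 to 0.041.

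The members' promoters were searched for the letters of the E2F site, because E2F factors drive this group as a class. Windows from 250 bases before to 50 after the RefSeq start (GRCh38.p14) were at hand for 41 of the 48 genes and for 10269 of the 13900 tested genes. At least 1 of the 8-letter words TTTCCCGC, TTTGGCGC, TTTCGCGC and TTTGCCGC was found on either strand in 20 of the 41 (48.8%), against 5.32% of the 10269 windows. The letters CCAAT of the NF-Y site were in 58.5% against 36.8%, TTTGAA or TTCGAA of the CHR element in 4.88% against 11%, the hypoxia core letters ACGTG or GCGTG in 70.7% against 63.1%, and CACGTG of the E-box, which contains ACGTG, in 12.2% against 10.2%. The 20 genes with an E2F word had 8 rises and 10 falls in the mutant clones and 7 that were lower in the interaction, and the 21 without had 4 rises, 15 falls and 11 that were lower in the interaction. Of all tested genes, 38.1% rose and 35.5% fell in the mutant clones, and 11.4% were lower in the interaction. Genes with and without an E2F word were found in both directions. The 160 bases before the start are shown 5′ to 3′ on the strand of the gene, with E2F words of either strand in capitals, for POLD2 (the largest rise, with no such word), for RFC3 (the second largest fall after RPA3), for PCNA and E2F1 as markers of the process, and for MCM6, which has 2 copies of overlapping words.
POLD2, chr7:44123549-44123708, minus strand: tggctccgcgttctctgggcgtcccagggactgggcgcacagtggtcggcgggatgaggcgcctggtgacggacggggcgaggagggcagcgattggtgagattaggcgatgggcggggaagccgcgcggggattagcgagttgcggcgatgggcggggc
RFC3, chr13:33817989-33818148, plus strand: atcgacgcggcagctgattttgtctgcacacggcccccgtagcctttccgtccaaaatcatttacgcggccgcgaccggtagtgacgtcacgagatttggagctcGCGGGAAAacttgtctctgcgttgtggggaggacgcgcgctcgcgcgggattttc
PCNA, chr20:5126623-5126782, minus strand: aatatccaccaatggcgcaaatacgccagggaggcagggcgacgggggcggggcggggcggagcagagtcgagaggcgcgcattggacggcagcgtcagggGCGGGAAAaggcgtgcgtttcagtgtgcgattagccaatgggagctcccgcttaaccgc
MCM6, chr2:135876444-135876603, minus strand: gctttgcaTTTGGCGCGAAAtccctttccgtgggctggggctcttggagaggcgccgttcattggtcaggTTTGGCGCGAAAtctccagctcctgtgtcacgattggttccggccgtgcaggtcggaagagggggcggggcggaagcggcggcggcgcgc
E2F1, chr20:33686386-33686545, minus strand: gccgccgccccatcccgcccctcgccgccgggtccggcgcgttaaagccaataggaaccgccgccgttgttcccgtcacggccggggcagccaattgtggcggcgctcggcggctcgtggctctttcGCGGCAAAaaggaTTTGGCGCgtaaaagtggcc
RFC3 and PCNA carry the same word, read as GCGGGAAA on the gene's strand, starting 55 and 59 bases before their starts. Their responses differed between mutant clones and WT8 by -0.54 for RFC3, past the threshold, and by -0.042 for PCNA, which did not pass.

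With dox, when all clones express transgenic VHL, the mutant clones already differed from WT8 in 24 of the 48 genes: 15 were higher and 9 lower, beside 20.6% and 22.6% of all genes. The 3 largest positive differences were those of DNA2, RPA1 and CHAF1A, at 0.76, 0.75 and 0.56, and the 3 largest negative ones those of CDT1 (-0.49), ORC6 (-0.38) and GINS2 (-0.32). After withdrawal 21 were lower and 5 higher in the mutant clones, beside 28.2% and 27.6% of all genes. All 6 genes of helicase activation were lower after withdrawal, from -0.18 (GINS2) to -0.64 (GINS1). RRM2 had the largest deficit, -0.90 ± 0.055 (log2, SE, adjusted p = 1.59e-13), after a difference of -0.15 with dox, although with dox MUT35 had the highest mean RRM2 level of all groups and MUT10 the lowest of the dox on groups. Averaged over MUT10 and MUT35, the 5 genes called higher than in WT8 without dox were MCM2 (0.70), RPA1 (0.44), DNA2 (0.43), POLD2 (0.33) and TYMS (0.16). Of these, MCM2, RPA1, DNA2 and POLD2 were also higher with dox. For POLD2 and TYMS the dox off libraries of MUT10 overlapped those of WT8, and only MUT35 lay wholly above. POLD2 had 137 to 153 CPM in WT8, 117 to 164 CPM in MUT10 and 197 to 229 CPM in MUT35. TYMS had 199 to 207 CPM in WT8, 203 to 216 CPM in MUT10 and 221 to 259 CPM in MUT35.

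Together the 48 genes took 0.417% ± 0.00402 (SD, n = 4) of the counts of a WT8 library with dox and 0.372% ± 0.00631 after withdrawal. In MUT10 the shares were 0.415% ± 0.00542 and 0.318% ± 0.0121, and in MUT35 0.438% ± 0.00569 and 0.344% ± 0.00157. The dox on shares of all clones lay between 0.4072% and 0.4447%, and no dox off library exceeded 0.3766%. RRM2, PCNA and TYMS weighed most in this sum in WT8 with dox, and the shares are not corrected for GC content.

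Between the mutant clones, few members differed in response. When the MUT35 response was subtracted from the MUT10 response, 1 of the 48 genes passed upward and 0 downward, beside 6.7% and 4.41% of all genes, and at an unadjusted p under 0.05 the counts were 1 and 4. The gene was MCM6, with a log2 fold change of -0.20 ± 0.07 (log2, SE, adjusted p = 0.0158) in MUT10 and -0.50 ± 0.068 (log2, SE, adjusted p = 8.78e-07) in MUT35, a difference of 0.30 ± 0.098 (log2, SE, adjusted p = 0.0482). The call of MCM6 was lost in 7 of 13 alternatives and in 18 of 24 fits that left out 1 library. There were 5 members lower with the GC trend removed, beside 9.98% of all genes. Without MUT10 dox on replicate 2 and MUT10 dox off replicate 4, 4 were lower, beside 1320 of 13986 genes. MCM6 levels were 69.3, 63.8, 65.7 and 69.4 CPM with dox and 52.4, 55.9, 58.8 and 66.8 CPM after withdrawal in MUT10. They were 105, 109, 109 and 96.8 CPM with dox and 72.8, 74.6, 75.4 and 74.8 CPM after withdrawal in MUT35. In MUT10 the states overlapped through dox off replicate 4. WT8 had 98.1, 86.5, 99.1 and 101 CPM with dox and 65.4, 67.4, 74.9 and 76.7 CPM after withdrawal, and its fall was -0.43.

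Other genes of the same processes, from textbook lists, were counted in the same fits, and their counts stand beside 35.5% of all genes that fell and 38.1% that rose in the mutant clones and 11.4% lower and 12.1% higher in the interaction. Of 34 other replication factors, 25 fell and 7 rose in the mutant clones, with 12 lower and 0 higher in the interaction. DBF4, the activator of the CDC7 kinase that fires origins, fell by 1.52 ± 0.082 (log2, SE, adjusted p = 1.33e-14) and differed from WT8 by -0.47, while GMNN, the inhibitor of CDT1, had -1.12 in the mutant clones and -1.04 in WT8, a fall in both. With the GC trend removed, DBF4 had -1.04 in the mutant clones and -0.55 in WT8, and GMNN had -0.93 and -0.82. SUPT16H, a subunit of the FACT histone chaperone, and TOP1, a topoisomerase, fell, with log2 fold changes of -0.67 and -0.43. POLD4, TICRR, CHTF8 and MCM9 rose, by 0.68, 0.36, 0.29 and 0.28. With the GC trend removed CHTF8 had -0.058, not called, POLD4 0.22, TICRR 0.18, TOP1 -0.17 and SUPT16H -0.51. Of 28 other nucleotide synthesis genes tested, 21 fell and 4 rose, with 10 lower and 2 higher in the interaction. PRPS1, which makes the ribose precursor of all nucleotides, had a log2 fold change of -0.80 ± 0.038 (log2, SE, adjusted p = 1.24e-15) in the mutant clones and -0.16 in WT8. The purine enzymes GMPS, PAICS and ATIC fell, with values of -0.63, -0.78 and -0.59. GUK1, guanylate kinase, IMPDH1, an enzyme of guanine nucleotide synthesis, TK2, the mitochondrial thymidine kinase, and CAD, which starts pyrimidine synthesis, rose by 0.87, 0.65, 0.55 and 0.19, but with the GC trend removed GUK1 had 0.22, GMPS -0.29, IMPDH1 was not called (0.04) and CAD was called lower (-0.26). Of 17 genes of the E2F and pocket protein network, 11 fell and 2 rose, with 3 lower and 1 higher in the interaction. CCNA2, cyclin A, fell by 0.96 ± 0.05 (log2, SE, adjusted p = 6.05e-15) and differed from WT8 by -0.69, CCNE2, E2F6 and SKP2 fell, with values of -0.78, -0.70 and -0.45, and E2F7, a repressor, and CDK2 rose by 0.39 and 0.23. CCNE2 had -0.15, SKP2 -0.13 and E2F7 0.61 with the GC trend removed, each called in the same direction. All 7 general proliferation markers fell in the mutant clones and all 7 were lower in the interaction. AURKA, CCNB1, TOP2A and BUB1, which act in or before mitosis, had log2 fold changes of -1.22, -1.36, -1.45 and -0.74 in the mutant clones, against -0.23, -0.46, -0.75 and -0.14 in WT8. With the GC trend removed, the mutant values of these 4 were -1.06, -1.09, -1.04 and -0.48, and all 7 markers still fell. In WT8, 5 of the 7 fell and 2 rose, beside 29.8% and 29.5% of all genes. With the trend removed, 3 fell and 3 rose in WT8, beside 19.3% and 20.7%. The median of the 7 markers was -0.76 in the interaction, beside -0.232 for the 48 replication genes.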

How the data were processed

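RNA from HK2 clones was extracted on RNeasy columns and sequenced as mRNA libraries. The sample labels and the study's methods name different library kits, and which applies is not known here. The submitters' processing notes name Bowtie2, RSEM and hg38. The authors deposited RSEM expected counts per gene symbol and library, not scaled for depth. The table's 24 libraries (5206663 to 18196003 counts) all entered the fit.

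Values were turned into whole numbers, given TMM factors and modelled in edgeR 4.0.16 (R 4.3.3) by the quasi-likelihood test, with 1 mean per clone and dox state. P-values were adjusted by Benjamini-Hochberg over the 13900 genes that passed edgeR's filter on low counts (threshold 0.05). The common biological coefficient of variation was 8.37%. Exact permutation tests within a clone used log2 CPM with a prior count of 2. Transcript GC content came from GENCODE canonical transcripts for 13467 tested genes (96.9%), and each library's trend on it, a spline with 5 degrees of freedom, was removed by an offset. The model was tested on simulated data.

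Members, lists and tests were chosen with earlier results of these data known. Every library's value is given for the largest rise and the largest fall called in each role in the mutant clones, for members with an interaction beyond 0.5, and for PCNA, E2F1, MCM5 and RRM2. From the other lists, at most 4 genes per direction are named, those of lowest adjusted p. Promoters shown are those of the largest rise and of members with an E2F word. No window of RPA3, the largest fall, was at hand. Alternatives were DESeq2 1.42.0, limma-voom (limma 3.58.1), RLE factors, depth alone as the scaling, no filter or one of 10 counts in every library, fits of only the libraries compared, a replicate block, offsets for GC or GC and length, leaving out libraries, thinning and a prior count of 0.5.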

Additional observations from a re-analysis of the deposited data

Results flagged for a closer look

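Of 300 groups of 4 libraries examined with Dixon's test (48 genes in 6 groups, the summed share and the GC slope), 17 held a library far from the other 3, where chance alone flags about 1 in 20. With dox, WT8 replicate 2 was low for CDC6 (84.2 against 90.3 to 91.2 CPM) and MCM6 (86.5 against 98.1 to 101 CPM) and high for CHAF1B (32.1 against 26.3 to 26.7 CPM), and WT8 replicate 1 was high for PCNA (496 against 444 to 447 CPM). After withdrawal, WT8 replicate 2 was high for POLA1 (29.8 against 28.3 to 28.5 CPM) and low for RFC5 (93 against 97.3 to 97.7 CPM). MUT10 dox off replicate 4 was low for POLA2 (36.2 against 41 to 41.8 CPM) and high for CHAF1A (19.4 against 17.6 to 17.9 CPM), and MUT10 dox on replicate 2 was low for RRM1 (175 against 194 to 198 CPM). Of the MUT35 libraries with dox, replicate 3 was low for MCM2 (120 against 130 to 132 CPM), LIG1 (24.6 against 29.5 to 30.4 CPM) and UHRF1 (58.3 against 63.6 to 64.2 CPM), replicate 1 for POLE (57.1 against 61.4 to 62.1 CPM), replicate 2 for RRM2 (506 against 558 to 560 CPM) and replicate 4 for RFC4 (68.8 against 72.7 to 73.1 CPM), while replicate 4 was high for CHAF1B (27.2 against 24.1 to 24.3 CPM). MUT35 dox off replicate 3 was low for MCM3 (78.9 against 89.8 to 91.7 CPM).

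The withdrawal effects of the mutant clones and of WT8 differed, by edgeR's test of the difference, for 20 genes. The log2 differences (mutant clones minus WT8) were -0.76 for RRM2, -0.60 for MCM10, -0.54 for RFC3, -0.53 for CDC45, -0.51 for TK1, -0.50 for CDC6, -0.47 for ORC1, -0.46 for CHAF1A and -0.40 for RRM1. They were -0.37 for GINS1, -0.36 for GINS3 and UHRF1, -0.34 for RFC5, -0.33 for ORC6, -0.31 for RPA1, DUT and POLE2, -0.30 for MCM7 and -0.16 for MCM4, and 0.19 for TYMS. Between MUT10 and MUT35, MCM6 differed by 0.30 (MUT10 minus MUT35).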

How the results depend on the processing

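The number of members that fell in the mutant clones was 31 under 10 of the 13 alternatives other than leaving out 1 library, 37 with the GC trend or GC and length trends removed, and 36 with a replicate block and the GC trend removed. With the GC trend removed, with a replicate block as well, and with GC and length trends removed, the members that rose numbered 3, 3 and 5 in the mutant clones, 1, 1 and 4 in MUT10, 2, 2 and 3 in MUT35, and 8 in each case in WT8. In the interaction 2 were higher under each of these, beside 2019, 2010 and 2039 of all 13467 genes. With GC and length trends removed 30 were lower, beside 2569 of all 13467. In the difference between MUT10 and MUT35, 5 were lower under each, beside 1344, 1365 and 1434 of all 13467. After withdrawal, the members higher in the mutant clones than in WT8 numbered 8 with the GC trend removed and 9 with GC and length trends removed. Of all 13467 genes, 4192 and 4226 were higher in these fits. Genes that turned with the GC trend removed, with a replicate block as well, and with GC and length trends removed were CDT1 (-0.089, -0.093, -0.106), MCM2 (-0.137, -0.137, -0.196), MCM3 (-0.015, -0.015, -0.023), POLA2 (-0.091, -0.092, -0.142), POLD1 (-0.093, -0.093, -0.17), POLE (-0.185, -0.185, -0.399), LIG1 (-0.527, -0.524, -0.572), TK1 (-0.358, -0.358, -0.237), E2F1 (-0.333, -0.334, -0.347) and E2F2 (-0.098, -0.105, -0.245), all log2 fold changes in the mutant clones. RFC2 (-0.193, -0.192) and RNASEH2A (-0.003, -0.002) turned under the first and second of these, and TYMS (0.107) under the third. These fits change the offset for base composition and length, and the second of them also adds the block. The cause of the trend itself was not tested. TYMS, the gene higher in the interaction, was lost, leaving 0, with no filter, library size alone, RLE factors, a replicate block and thinning, and leaving out 2 MUT10 libraries gave 2. MCM6, the gene higher in MUT10 than MUT35, was lost, leaving 0, with thinning, no filter, limma-voom, DESeq2, library size alone, RLE factors and only the libraries compared. RLE factors, library size alone and DESeq2 called 1 lower there, and leaving out 2 MUT10 libraries called 4, beside 1320 of 13986 genes. The causes of these losses were not tested. Leaving out each of the 24 libraries in turn gave 5 to 11 rises in MUT10 (5 without dox on replicate 4, 6 without dox off replicate 3), 0 to 2 higher in the interaction, 5 to 8 higher after withdrawal (8 without MUT10 dox off replicate 1), and 0 to 1 higher and 0 to 1 lower between MUT10 and MUT35 (1 lower without MUT10 dox off replicate 4 or MUT35 dox on replicate 2). TYMS passed in 6 of these 24 fits, and MCM6 was lost in 18 of them. The falls in the mutant clones stayed at 31 and the members lower in the interaction ranged from 16 to 24. Replicate numbers were not taken as a pairing, since no label ties them and not every pair's correlation passed 0.1. Of 12 pairs with the same number within a clone, 6 had correlated deviations over 0.1 (range -0.361 to 0.601), and 7 of 12 dox off libraries correlated best with their own number, which is a hint from the data and not the design. With a replicate block 31 fell and 13 rose in the mutant clones, and 19 were lower and 0 higher in the interaction. The counts of members at the smallest exact p were the same with a prior count of 0.5 (33 in WT8, 30 in MUT10, 36 in MUT35), and on the sense strand alone 9 of 41 promoters held an E2F word in place of 20.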
